A study of Homo sapiens with 11 samples.

Results

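The genes analysed here encode the subunits of RNA polymerases I, II and III (Pol I, Pol II and Pol III). They are the protein-coding genes of the count tables whose GENCODE symbol begins with POLR1, POLR2 or POLR3 followed by a letter. This rule gave 30 genes among the 18108 protein-coding genes and 23167 identifiers of the tables, and it used no measured value. By textbook role, 5 encode subunits of Pol I only, 2 are shared by Pol I and Pol III, 5 are shared by all 3 polymerases, 8 belong to Pol II only and 10 to Pol III only. POLR1H, POLR2A and POLR2J2 had no row in the tables and are not analysed here. RNA-seq was performed in MDA-MB-231, a human triple-negative breast cancer (TNBC) cell line, with 2 libraries of wild-type (WT) cells and 2 of cells depleted of the histone variant macroH2A1.1 (mH2A1.1 KD). KD cells received an siRNA against mH2A1.1 at 11 nM with the INTERFERin reagent for 3 days, and WT cells went through the same transfection without any siRNA. An effect of the siRNA itself and the loss of mH2A1.1 therefore cannot be told apart. ChIP-seq of untreated cells gave 1 peak list for mH2A1.1 and 1 for total mH2A1, with no replicate. All cells came from 1 line, and the labels do not say whether libraries of a group came from separate cultures, so p-values measure the spread between these libraries, which may be technical.

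The nuclear polymerases divide transcription between them. Pol I makes the large ribosomal RNA precursor in the nucleolus, Pol II makes messenger RNAs and many non-coding RNAs, and Pol III makes transfer RNAs and other short RNAs. Each enzyme is built around a pair of large catalytic subunits, an assembly platform, a set of small subunits common to all of the enzymes, and a stalk, while Pol I and Pol III carry additional subunits that resemble Pol II initiation factors. mH2A1.1 is a splice form of the histone variant macroH2A1, an H2A with a large C-terminal macro domain that binds NAD-derived metabolites.

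The libraries held 9794674 and 7856892 counts in WT and 5584962 and 2309549 in KD. KD replicate 2 had 30 counts in all on chromosomes 21, 22 and X, so genes on these chromosomes, such as POLR2F on chromosome 22, were compared with KD replicate 1 only. The KD libraries were less alike than the WT libraries, with correlations across genes of 0.959 and 0.994 on a log2 scale of CPM (counts scaled to library size). MACROH2A1, the targeted gene, had 385 and 394 CPM in WT and 274 and 301 CPM in KD, a log2 fold change of -0.44 (edgeR, Benjamini-Hochberg adjusted p = 0.204). Both KD values lay below both WT values, but counts per gene do not separate the mH2A1.1 and mH2A1.2 splice forms. Of the marker genes of the line, VIM, CD44, AXL and KRT18 had between 344 and 4730 CPM in every library, ESR1, PGR and the fibroblast gene DCN were at 0 in all 4 libraries, CDH1 had 2 to 22 counts and the endothelial gene PECAM1 9 to 29. GATA3, listed as low or absent, was detected at 17.8 to 24.6 CPM. In bulk samples, fewer cells of a type and less RNA per cell cannot be told apart.

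In WT cells, the subunits shared by all 3 polymerases had the highest median level per length, and the subunits of Pol III only the lowest. Levels are RPKM, reads scaled to exon length in kb and to the reads on protein-coding genes, as the mean ± SD of the 2 WT libraries. The median was 24.6 RPKM over the 5 shared genes, 13.6 RPKM over the Pol II genes, 11.9 RPKM over the Pol I genes, 5.58 RPKM over the pair shared by Pol I and Pol III, and 4.91 RPKM over the Pol III genes. The classes overlapped widely, as Pol II genes ranged from 4.45 to 47.0 RPKM and Pol I genes from 6.59 to 20.9 RPKM. No Pol III gene exceeded 9.35 RPKM, though POLR3C had 11.2 RPKM when scaled to its longest transcript instead of all exons.

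POLR2B, the large catalytic partner of POLR2A in Pol II, had the highest level of the family at 47.0 ± 1.34 RPKM (SD, n = 2). POLR2L, a small shared subunit of the assembly platform, followed at 42.1 ± 8.44 RPKM, and these values lay within the spread of the POLR2L libraries. POLR2K, another small shared subunit, had 35.1 ± 2.61 RPKM, and its libraries lay above the 28.8 ± 1.89 RPKM of POLR2J, which forms part of the Pol II assembly platform. Scaled to the longest transcript, the order of POLR2K (57.4 RPKM) and POLR2L (54.1 RPKM) was reversed. Among Pol I genes POLR1E, which forms a heterodimer with POLR1G at the periphery of Pol I, had 20.9 ± 0.635 RPKM against 11.9 ± 1.96 RPKM for POLR1G. The catalytic subunits POLR3A and POLR3B had 4.74 ± 0.297 and 9.35 ± 0.180 RPKM, and the Pol I catalytic subunits POLR1A and POLR1B had 11.4 ± 0.376 and 6.59 ± 0.419 RPKM. The gap between POLR3A and POLR3B depended on the length used, with 9.8 and 10.7 RPKM by the longest transcript. A pair of genes was at the detection limit. POLR2F, a shared subunit, had 0 and 2 counts in WT and 1 in KD replicate 1, where a count of 0 in the first WT library allows up to 0.306 CPM. POLR3E, a Pol III subunit of the heterodimer with POLR3D, had 3 and 2 counts in WT and 3 and 2 in KD. Neither could be compared between groups. The annotation used for counting is not given in the sources used here, so these low counts show what was assigned to the identifiers and not whether the genes were silent.

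**Figure D1:**
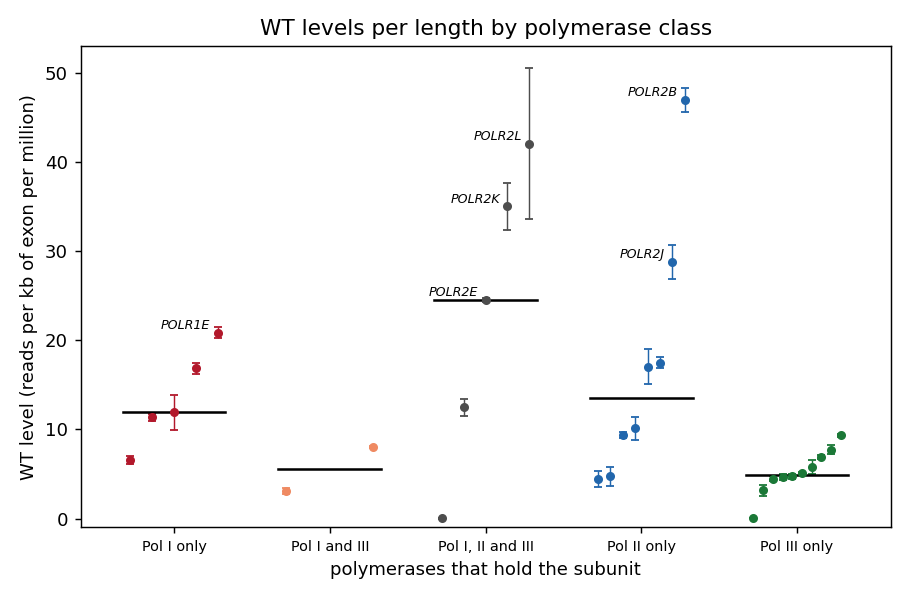
WT level per length of the 30 polymerase subunit genes by class. Points are means of the 2 WT libraries in RPKM, error bars are SD, and black lines are class medians. The line of the subunits shared by Pol I, II and III lies at 24.6 and that of the Pol III subunits at 4.91, and POLR2F and POLR3E lie near 0.

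The main comparison asked whether depletion of mH2A1.1 altered the levels of the subunit genes. A gene was called when the Benjamini-Hochberg adjusted p was under 0.1 and the fold change over 1.5, the thresholds of the study. The study applied these thresholds with DESeq2, whereas the main test here was edgeR. Of the 27 genes that could be tested in all 4 libraries, edgeR called 0 lower and 0 higher. The background was the same, as 0.0% of the 10943 genes tested were called lower and 0.0% higher, and the smallest adjusted p of any gene was 0.175. Adjusted p-values of the subunit genes ran from 0.193 to 0.906 with edgeR. At an unadjusted p under 0.05, edgeR had 7 of the 27 genes, 3 with a positive and 4 with a negative log2 fold change, and 23.2% of all genes passed the same limit.

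DESeq2 called 3 of the 23 subunit genes for which it gave an adjusted p. POLR2M, which encodes a protein that binds Pol II and competes with an initiation factor, was called lower (log2 fold change -1.17 ± 0.43 SE, DESeq2 adjusted p = 0.0759). POLR2I, a subunit at the jaw of Pol II involved in start site choice and proofreading, was called higher (1.29 ± 0.44 SE, DESeq2 adjusted p = 0.0575). POLR2G, a stalk subunit of Pol II, was called higher as well (0.97 ± 0.35 SE, DESeq2 adjusted p = 0.0691). All of these calls fell on Pol II only genes. Every Pol II only gene had an adjusted p, whereas POLR3F, POLR3G, POLR3GL and POLR3K had none and could not be called. Over all genes, DESeq2 called 5.78% lower and 5.57% higher, so 1 lower and 2 higher among 23 is a share near the background. All 3 calls were lost when either WT library was left out, and also when KD replicate 2 was left out. Without either WT library, DESeq2 called 0 genes of all those tested, and 1.4% and 2.72% had an unadjusted p under 0.05.

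The median edgeR log2 fold change over the 27 genes was 0.24, beside 0.0077 over all genes. A positive value was found for 18 of the 27 genes, beside 50.6% of all genes. Both KD libraries lay above both WT libraries for 13 subunit genes and below both for 6, while the same held for 32.5% and 32.4% of all genes. The median was 0.14 in KD replicate 1 and 0.26 in KD replicate 2, each against the mean of the WT libraries. The class medians were 0.47 for the shared subunits (4 genes), 0.23 for Pol I only (5 genes), 0.20 for Pol II only (8 genes), 0.17 for Pol III only (8 genes) and 0.15 for the pair of Pol I and Pol III. With GC and length offsets (described with the single-library comparisons) the medians were 0.17, 0.012, -0.020, 0.055 and 0.23 in the same order, so the order of the classes changed and the Pol II median turned sign. In KD replicate 1 against the WT mean they were 0.14, 0.22, 0.064, 0.14 and 0.10. Without offsets every class contained both signs except the pair, and each of these medians is a description without a test.

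**Figure D2:**
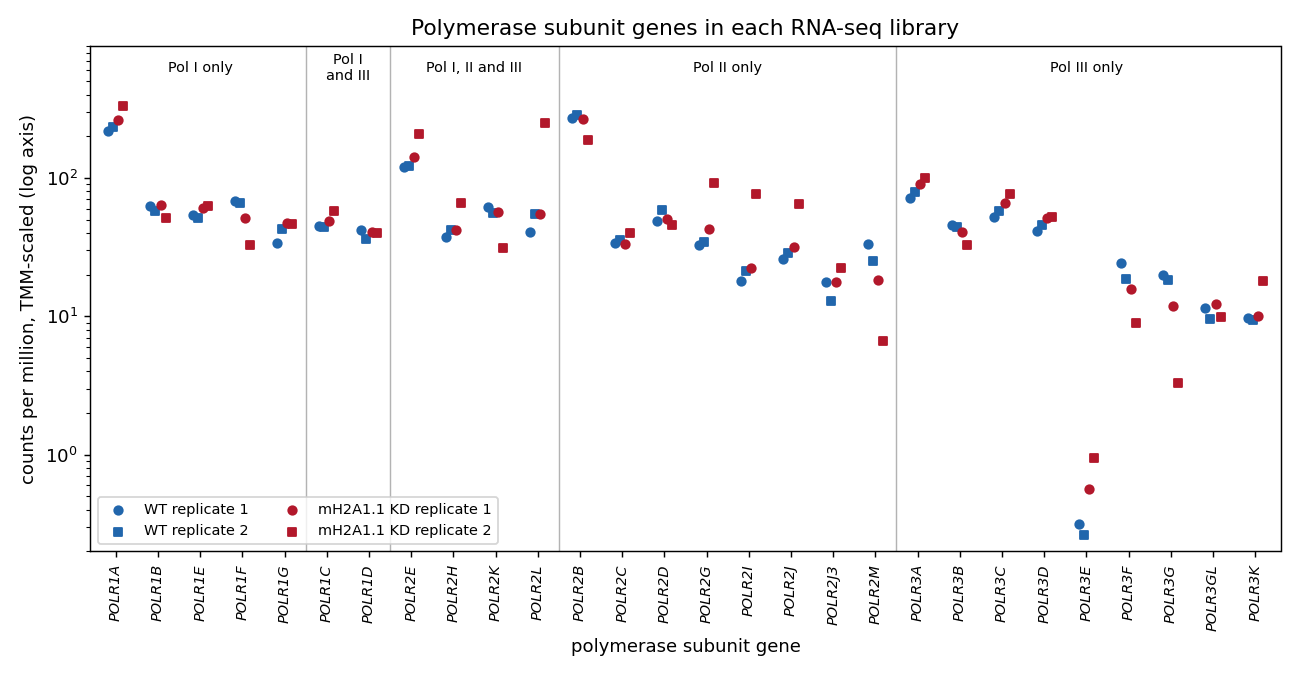
Level in CPM (log axis) of 28 subunit genes in the 4 RNA-seq libraries, by class. Blue points are WT, red points are mH2A1.1 KD, circles are replicate 1 and squares replicate 2. KD replicate 2 was the farther from WT for 24 of the 27 genes compared, for example at 3.31 CPM for POLR3G and at 251 CPM for POLR2L. POLR2F, with 0 to 2 counts, cannot be drawn on a log axis.

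The KD libraries differed strongly in how far the subunit genes lay from WT. In KD replicate 1 the log2 ratio to the WT mean ran from -0.68 to 0.36 (SD over genes 0.29), and in KD replicate 2 from -2.53 to 2.39 (SD over genes 1.1). KD replicate 2 was the farther from WT for 24 of 27 genes, and 3 genes had opposite signs in the KD libraries. The direction went with base composition. Among the 9 genes of lowest exon GC content (up to 44.1%), the median log2 ratio was -0.15 in KD replicate 1 and -0.92 in KD replicate 2, and among the 9 of highest GC content (51.7% or more) it was 0.22 and 0.79. Across the 27 genes, GC content and log2 ratio had a Pearson's r of 0.64 in KD replicate 1 and 0.80 in KD replicate 2. This is a description over genes that share 4 libraries. The same rank correlation over all genes was 0.43 and 0.74 (Spearman's rho, n = 10943), and over the subunit genes it was 0.63 and 0.81. KD replicate 2 was also the shallowest library, with 2309549 counts. The part of GC content, RNA quality or depth in the differences was not tested.

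**Figure D3:**
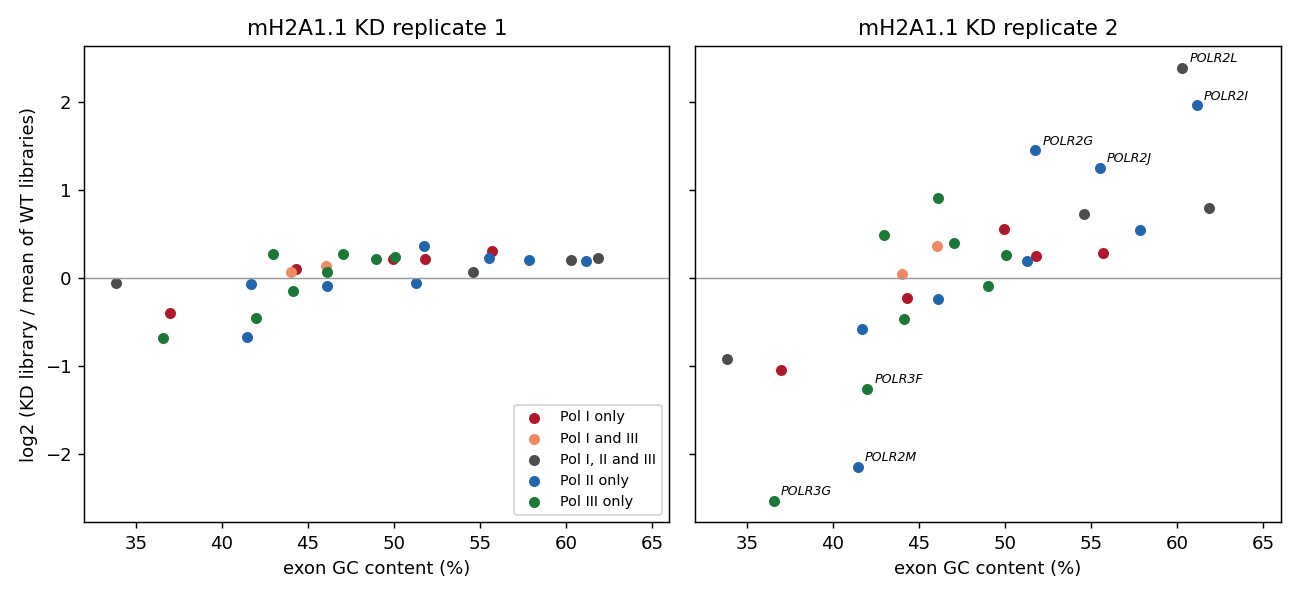
Log2 ratio of each KD library to the mean of the WT libraries against exon GC content in percent, for the 27 subunit genes in the 4-library comparison, coloured by class. The points lie between -0.68 and 0.36 in KD replicate 1 (left) and between -2.53 and 2.39 in KD replicate 2 (right). In both panels the 3 lowest values belong to genes of at most 44.1% GC, and in KD replicate 2 the labelled genes above 0 have at least 51.7% GC.

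Each KD library was also compared with WT on its own, which assumes that the lone KD library varied like WT. With KD replicate 1 alone, edgeR called POLR2M and POLR3G lower and 0 subunit genes higher, against 5.36% lower and 2.6% higher over all genes. With KD replicate 2 alone, edgeR called 6 of 27 lower (POLR1F, POLR2B, POLR2K, POLR2M, POLR3F, POLR3G) and 7 higher (POLR2E, POLR2G, POLR2H, POLR2I, POLR2J, POLR2L, POLR3K), against 21.4% and 20.4% over all genes. POLR2M and POLR3G were in both lists of lower genes, but both comparisons used the same WT libraries and are not independent. The share of all genes called in the same direction in both was not computed, so this overlap has no background. When smooth trends on exon GC content and exon length were removed from each library with offsets, edgeR called 0 subunit genes in either direction, against 3.18% lower and 2.17% higher over all genes. With the offsets, DESeq2 called POLR2G (log2 fold change 0.78, DESeq2 adjusted p = 0.0602) and POLR3C (0.60, DESeq2 adjusted p = 0.0741) higher and 0 subunit genes lower, against 3.45% higher and 2.21% lower over all genes. The median edgeR log2 fold change of the 27 genes was 0.06 with offsets, and 7 genes had the other sign than without them. POLR2G was the gene that DESeq2 called with and without offsets.

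Among the subunits of Pol I only, POLR1F had the most negative log2 fold change and POLR1A the most positive. POLR1F, the stalk subunit that contacts the initiation factor RRN3, had 68.7 and 65.7 CPM in WT and 51.1 and 32.7 CPM in KD. Both KD libraries lay below both WT libraries, with a log2 fold change of -0.65 ± 0.24 SE that did not pass the test (edgeR adjusted p = 0.198) and shrank to -0.11 with GC and length offsets. POLR1A, the largest catalytic subunit, had 220 and 232 CPM in WT and 263 and 334 CPM in KD. The KD values were the higher, without passing the test (0.40 ± 0.19 SE, edgeR adjusted p = 0.247), and the log2 fold change was 0.19 with offsets. POLR1E had 53.6 and 51.6 CPM in WT and 61.1 and 62.5 CPM in KD, and its partner POLR1G had 33.9 and 43.1 CPM in WT and 47.7 and 46.9 CPM in KD. Both members of this heterodimer were a little higher in both KD libraries, and with offsets their log2 fold changes were 0.012 and -0.0042. POLR1B, the other catalytic subunit, had 62.4 and 57.3 CPM in WT and 64.1 and 51.1 CPM in KD, with overlapping groups.

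The pair shared by Pol I and Pol III forms the assembly platform of both enzymes. POLR1C had 45.1 and 44.3 CPM in WT and 49.2 and 57.3 CPM in KD, so KD was slightly above WT (log2 fold change 0.24 ± 0.19 SE, edgeR adjusted p = 0.428). POLR1D, its partner, had 42.0 and 36.1 CPM in WT and 40.9 and 40.2 CPM in KD. Its KD values lay between the WT values.

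Among the subunits shared by all 3 polymerases, POLR2L had the largest log2 fold change of the 27 genes, and it rested on 1 library. POLR2L, on chromosome 11 from 837356 to 842529 on the minus strand (GRCh38), had 41.0 and 54.8 CPM in WT and 55.1 and 251 CPM in KD. KD replicate 1 lay just above the higher WT library and KD replicate 2 far above it. The log2 fold change was 1.65 ± 0.62 SE (edgeR adjusted p = 0.198), 0.89 with offsets and 0.22 without KD replicate 2. POLR2E, a subunit at the jaw that contacts downstream DNA, had 119.5 and 121.9 CPM in WT and 140.8 and 209.2 CPM in KD. Both KD libraries were above WT, again with the wider gap in KD replicate 2 (0.53 ± 0.23 SE, edgeR adjusted p = 0.220). The value for POLR2E was 0.23 without KD replicate 2 and 0.049 with offsets. POLR2H, a small shared subunit, had 37.6 and 42.0 CPM in WT and 41.8 and 65.8 CPM in KD, and the groups overlapped. POLR2K, which has the lowest exon GC content of the 27 genes (33.8%), had 62.2 and 56.2 CPM in WT and 56.95 and 31.2 CPM in KD. POLR2K turned from a log2 fold change of -0.39 to 0.27 with GC and length offsets, so no direction can be given for it.

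The Pol II subunits held positive and negative log2 fold changes. POLR2G, which forms the stalk with POLR2D and lies on chromosome 11 from 62761565 to 62766710 on the plus strand, had 32.7 and 34.5 CPM in WT and 43.1 and 91.8 CPM in KD. Both KD libraries lay above both WT libraries, and the edgeR log2 fold change was 0.97 ± 0.34 SE (edgeR adjusted p = 0.193), 0.64 with offsets and 0.37 without KD replicate 2. Its stalk partner POLR2D had 48.6 and 58.3 CPM in WT and 50.3 and 45.4 CPM in KD, with overlapping groups. The KD libraries thus lay above WT for POLR2G and across the lower WT library for POLR2D; the difference between the genes was not tested. POLR2I, on chromosome 19 from 36113709 to 36115213 on the minus strand, had 17.9 and 21.2 CPM in WT and 22.3 and 76.2 CPM in KD. As for POLR2L, KD replicate 1 lay close to WT and KD replicate 2 carried the difference (edgeR log2 fold change 1.26 ± 0.51 SE, adjusted p = 0.210, 0.54 with offsets and 0.20 without KD replicate 2).

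The assembly platform of Pol II is formed by POLR2C and POLR2J with the shared subunits POLR2K and POLR2L. POLR2J had 25.9 and 28.6 CPM in WT and 31.8 and 64.8 CPM in KD. POLR2C had 33.7 and 35.8 CPM in WT and 33.3 and 39.8 CPM in KD. KD was above WT in both libraries for POLR2J (0.78 ± 0.33 SE, edgeR adjusted p = 0.218) and overlapped WT for POLR2C. The value for POLR2J was 0.24 with offsets and 0.23 without KD replicate 2. POLR2B had 273.4 and 286.0 CPM in WT and 267.7 and 187.0 CPM in KD, below both WT libraries by a margin that was small in KD replicate 1 (-0.29 ± 0.22 SE, edgeR adjusted p = 0.408). The value for POLR2B was -0.059 without KD replicate 2 and 0.0031 with offsets, so no direction can be given for it either. POLR2J3, a copy of POLR2J, had 17.7 and 12.9 CPM in WT and 17.6 and 22.3 CPM in KD. Reads of POLR2J3 may be split with its near-identical copies, so its values are uncertain.

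POLR2M was the Pol II gene with the most negative log2 fold change. It lies on chromosome 15 from 57706695 to 57782762 on the plus strand and had 33.2 and 25.3 CPM in WT and 18.4 and 6.63 CPM in KD. Both KD libraries lay below both WT libraries, and KD replicate 2 was lower than KD replicate 1. The edgeR log2 fold change was -1.09 ± 0.39 SE over 4 libraries (adjusted p = 0.193), -0.68 ± 0.19 SE with KD replicate 1 alone (edgeR adjusted p = 0.00307) and -0.77 with GC and length offsets (edgeR adjusted p = 0.118). The locus GCOM1 overlaps POLR2M on the same strand, so the counts of POLR2M depend on how shared reads were assigned. The same holds for POLR2J3 and POLR3GL, which also overlap annotated genes on their own strand. Other subunit genes overlap a gene on the opposite strand, among them POLR2L (CD151), POLR2I (TBCB and OVOL3), POLR3F (DZANK1) and POLR3G (MBLAC2), and reads of such partners may not be told apart.

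Among Pol III subunits, POLR3G and POLR3F had the most negative log2 fold changes. POLR3G encodes the form of a Pol III-specific subunit that is known from stem and tumour cells, while its paralog POLR3GL encodes the form found in most tissues. POLR3G had 20.02 and 18.2 CPM in WT and 11.9 and 3.31 CPM in KD, where the last value stands for 7 counts. POLR3GL had 11.6 and 9.61 CPM in WT and 12.3 and 9.94 CPM in KD. The KD libraries lay below WT for POLR3G and overlapped WT for POLR3GL; the difference between the paralogs was not tested. POLR3G had an edgeR log2 fold change of -1.13 ± 0.42 SE (adjusted p = 0.197), -0.68 ± 0.22 SE with KD replicate 1 alone (edgeR adjusted p = 0.0152) and -0.58 with offsets (edgeR adjusted p = 0.197). DESeq2 gave it no adjusted p.

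POLR3C, POLR3F and POLR3G together form the subcomplex of Pol III that acts in initiation. POLR3F had 24.2 and 18.7 CPM in WT and 15.7 and 8.99 CPM in KD. POLR3C had 52.3 and 57.3 CPM in WT and 66.2 and 76.7 CPM in KD. POLR3F was below WT in both KD libraries (-0.72 ± 0.30 SE, edgeR adjusted p = 0.213) and POLR3C above WT in both (0.38 ± 0.19 SE, edgeR adjusted p = 0.255), and with offsets they were -0.45 and 0.56. DESeq2 gave POLR3F no adjusted p. Of the catalytic pair, POLR3A had 72.1 and 79.1 CPM in WT and 91.2 and 99.9 CPM in KD. POLR3B had 45.5 and 44.5 CPM in WT and 40.7 and 32.7 CPM in KD. The catalytic subunits thus lay on opposite sides of WT, with log2 fold changes of 0.33 and -0.28 and edgeR adjusted p-values of 0.277 and 0.397. With offsets the log2 fold changes were 0.28 and -0.11.

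POLR3D was not called by edgeR or DESeq2 over 4 libraries, and POLR3K was not called by edgeR, while DESeq2 gave it no adjusted p. POLR3D had 41.4 and 45.6 CPM in WT and 51.3 and 52.1 CPM in KD. POLR3K, a small subunit needed for RNA cleavage and termination, had 9.69 and 9.48 CPM in WT and 10.0 and 17.99 CPM in KD. Both genes were above WT in both KD libraries without passing the test (edgeR adjusted p = 0.408 and 0.380).

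Promoters are shown for 3 subunit genes as examples. POLR2L had the largest positive log2 fold change, POLR2M was called lower by DESeq2, and POLR1F had the most negative value of the Pol I only genes, though the values of POLR2M, POLR3F and POLR3G were more negative. The sequences are the 250 bases before the RefSeq start (GRCh38.p14), read 5′ to 3′ on the strand of the gene, with matches of SP1 (GGGCGG on either strand) and of TATA in capitals.
POLR2L promoter, chr11:842530-842779, minus strand: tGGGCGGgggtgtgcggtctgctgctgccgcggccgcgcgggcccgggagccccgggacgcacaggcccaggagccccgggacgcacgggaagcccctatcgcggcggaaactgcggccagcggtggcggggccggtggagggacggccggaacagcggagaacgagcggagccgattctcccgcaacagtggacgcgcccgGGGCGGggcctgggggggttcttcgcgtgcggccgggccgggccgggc
POLR2M promoter, chr15:57706464-57706713, plus strand: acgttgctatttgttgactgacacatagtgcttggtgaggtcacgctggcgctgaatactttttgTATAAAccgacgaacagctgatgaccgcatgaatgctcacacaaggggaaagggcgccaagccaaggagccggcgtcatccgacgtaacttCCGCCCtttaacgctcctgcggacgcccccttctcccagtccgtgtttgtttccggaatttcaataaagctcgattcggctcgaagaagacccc
POLR1F promoter, chr7:19709038-19709287, minus strand: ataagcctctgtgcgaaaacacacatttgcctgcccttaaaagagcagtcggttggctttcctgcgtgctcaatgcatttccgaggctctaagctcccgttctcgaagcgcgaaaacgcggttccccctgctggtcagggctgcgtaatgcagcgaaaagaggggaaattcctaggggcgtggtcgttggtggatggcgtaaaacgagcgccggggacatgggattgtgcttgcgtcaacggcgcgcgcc
The POLR2L window had 79.2% GC and 2 SP1 matches, the POLR2M window 53.2% GC with 1 match each of TATA and SP1, and the POLR1F window 57.6% GC and no match of any motif searched.

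Windows were available for 21 of the 30 subunit genes, some with more than 1 start, and 5 motifs were searched on both strands; a gene counted when any of its windows held the motif. GGGCGG was present in 14 of the 21 genes (66.7%), beside 46.2% of 27305 genes. This background exceeds the 18108 protein-coding genes of the count tables and was not matched to the subunit genes. CCGGAAG, a core of ETS factor sites, was present in 6 (28.6%, beside 10.2%), namely POLR1B, POLR1C, POLR2C, POLR2F, POLR3A and POLR3C. GCGCATGC, a core of NRF1 sites that overlaps its own complement, was present in 3 (14.3%, beside 3.22%), namely POLR2F, POLR2H and POLR3B. CCAAT was present in 5 (23.8%, beside 37.0%) and TATAAA in POLR2M alone (4.76%, beside 13.0%). These shares describe letters in a window and were not tested.

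The ChIP-seq comparison asked where mH2A1.1 and total mH2A1 lay at the subunit genes. A peak counted at a transcription start site (TSS) when it overlapped the 500 bp on either side by at least 1 bp. An mH2A1.1 peak lay at the TSS of 15 of the 30 genes (50.0%), beside 40.5% of all protein-coding genes and 47.0% of those in the expression comparison. An mH2A1.1 peak that shared bases with a total mH2A1 peak (a common peak) lay at 9 (30.0%, beside 25.3% and 26.4%). The shared bases can lie anywhere along the peak and need not be at the TSS. A total mH2A1 peak lay at the TSS of 4 (13.3%, beside 22.3% and 18.6%), among them POLR2E, POLR2F and POLR3A. Peaks are given in steps of 3000 bp, so a position is no finer than that, and each list came from 1 library.

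By class, mH2A1.1 peaks were most frequent at Pol I genes and at the shared subunits. Of the 5 Pol I only genes 4 had an mH2A1.1 peak at the TSS (POLR1A, POLR1B, POLR1E and POLR1G), of which POLR1E had a common peak, and POLR1F had none within its body. Of the 5 genes shared by all polymerases 4 had a common peak at the TSS (POLR2E, POLR2F, POLR2H and POLR2L), and POLR2K had none. Of the 8 Pol II genes 3 had an mH2A1.1 peak (POLR2B, POLR2J and POLR2J3), and of the 10 Pol III genes 3 did, among them POLR3C and POLR3D. POLR1C of the remaining pair had a common peak and POLR1D none at the TSS. No difference between classes was tested.

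The extent of the peaks varied from a single step to whole loci. The common peak over POLR2L ran from 774001 to 846000 on chromosome 11, 72000 bp wide, and began at -3471 bp from the start on the strand of the gene. It covered the whole gene, as did the common peaks over POLR2H (36000 bp wide), POLR2E (18000 bp wide) and POLR2J (15000 bp wide). Total mH2A1 peaks themselves covered 4.3% of POLR2E and 0.0% of POLR2L, POLR2H and POLR2J. At POLR1A, POLR1B, POLR2B and POLR3D the mH2A1.1 peak at the TSS was 3000 bp wide, the smallest step of the list. POLR2G, POLR2I, POLR2K, POLR3E, POLR3F, POLR3G and POLR3K had no mH2A1.1 peak over any base of the gene, nor had POLR1F, POLR2C and POLR2D. POLR2M had 2 mH2A1.1 peaks inside the gene, 3000 bp wide each, of which the nearer to the start began 19306 bp downstream of the start.

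**Figure D4:**
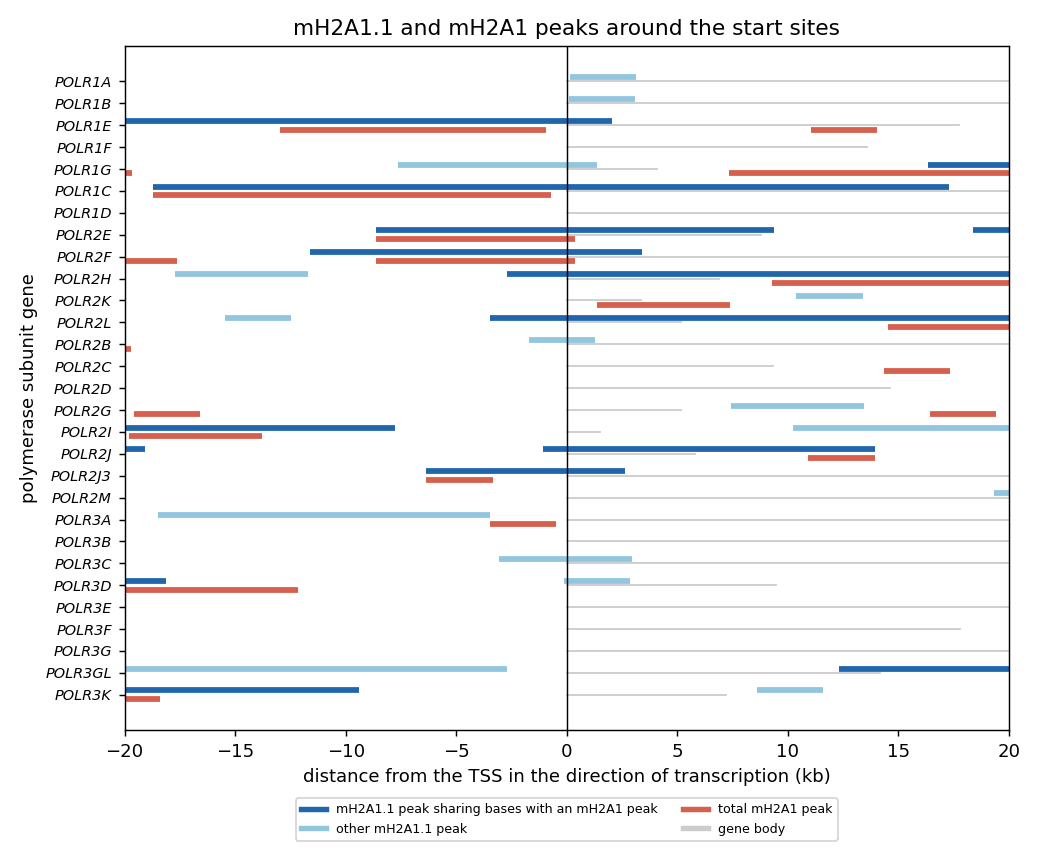
Peaks within 20 kb of the TSS of 29 subunit genes, oriented in the direction of transcription, with distance in kb. Dark blue bars are mH2A1.1 peaks that share bases with a total mH2A1 peak, light blue bars other mH2A1.1 peaks, red bars total mH2A1 peaks and grey lines gene bodies. Dark blue bars cross the TSS of 8 of these genes, and red bars cross or come within 500 bp of the TSS of 3.

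The 7 tested genes with a common peak at the TSS had log2 fold changes from 0.23 to 1.65 with a median of 0.41, and the other 20 had a median of 0.056 and ran from -1.13 to 1.26. The groups also differed in base composition, with a median exon GC content of 55.5% and 45.2%. With GC and length offsets the medians were 0.062 and 0.052. For any mH2A1.1 peak at the TSS, the median was 0.35 over 13 genes with a peak (GC 51.8%) and -0.049 over 14 without (GC 45.1%), and with offsets 0.10 and -0.053. These medians are descriptions, and the part of GC content in them was not tested further.

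The factors that work with the polymerases were compared in 5 lists. With edgeR, 0 genes were called in any of them, and DESeq2 calls are read beside the 5.78% lower and 5.57% higher of all genes. Of 8 Pol II general initiation factors, DESeq2 called 1 of 7 lower and 0 higher, namely GTF2A1, a subunit of TFIIA, with 173 and 160 CPM in WT and 121 and 89.0 CPM in KD (DESeq2 adjusted p = 0.0978). Both KD libraries lay below WT, and the edgeR log2 fold change went from -0.65 to -0.047 with GC and length offsets. DESeq2 called 0 of 5 Pol I factors and 0 of 13 Pol III factors in either direction. The genes of smallest unadjusted p in those lists were TAF1B (71.4 and 66.8 CPM in WT, 54.1 and 37.9 CPM in KD) and TAF1C (23.1 and 20.7, then 27.2 and 34.1 CPM), subunits of the Pol I selectivity factor. For Pol III they were BRF2 (5.06 and 5.66 CPM in WT, 9.27 and 9.94 CPM in KD), a factor of promoters such as that of U6, and the repressor MAF1 (91.1 and 104 CPM in WT, 129 and 186 CPM in KD). Both KD libraries lay above WT for BRF2 and MAF1, with edgeR log2 fold changes of 0.83 and 0.69 and an adjusted p of 0.193 each, and of 0.60 and 0.17 with offsets. TAF1B, TAF1C and MAF1 did not pass the test of edgeR or DESeq2, and BRF2 did not pass that of edgeR and had no adjusted p from DESeq2.

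Assembly and import factors, which build the polymerases in the cytoplasm, were called in 3 cases with DESeq2. Of 13 with an adjusted p, 1 was called lower and 2 higher, beside 5.78% and 5.57% of all genes. RPAP3, a chaperone partner, had 64.8 and 52.7 CPM in WT and 39.2 and 20.8 CPM in KD (DESeq2 adjusted p = 0.0693). RPAP1, which links Pol II to its chaperones, had 35.0 and 40.2 CPM in WT and 55.8 and 75.7 CPM in KD (DESeq2 adjusted p = 0.0776). RUVBL2, an ATPase of the same chaperone complex as RPAP3, had 115 and 129 CPM in WT and 152 and 342 CPM in KD (DESeq2 adjusted p = 0.0497). The KD libraries did not overlap WT for any of these. Over all genes, both KD libraries lay above both WT libraries for 32.5% and below both for 32.4%. Of the 3 mitochondrial genes, POLRMT, the mitochondrial RNA polymerase, was called higher and 0 were called lower, with 28.1 and 36.5 CPM in WT and 42.0 and 81.9 CPM in KD (DESeq2 adjusted p = 0.0862). The exon GC content of the genes called lower was 36.4% (GTF2A1) and 35.7% (RPAP3), and that of the genes called higher was 56.7% (RPAP1), 57.6% (RUVBL2) and 66.4% (POLRMT). With GC and length offsets the edgeR log2 fold change went from -0.92 to -0.31 for RPAP3, from 0.79 to 0.43 for RPAP1, from 1.01 to 0.54 for RUVBL2 and from 0.91 to 0.33 for POLRMT. RRN3, BDP1 and PFDN6 are not analysed here.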

How the data were processed

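The analysis used 4 RNA-seq tables and 2 ChIP-seq peak lists. The authors aligned RNA-seq reads to GRCh38 with STAR 2.5.1, filtered on mapping quality, removed duplicates and counted reads per gene with htseq-count at default settings, and the deposited counts are not normalized. The other deposited values are peak positions in base pairs, called by the authors against input on single libraries, and all scores are 0. Symbols, exon lengths and TSSs came from GENCODE release 44, which matched 23061 of 23167 identifiers; the rest held 0.12% to 0.176% of counts and were left out of tests. The libraries were made with a stranded total RNA kit, and the strand setting of the counting is known only as the default. Whether the setting matched the kit could not be checked, so reads, above all of overlapping genes, may be missing or misassigned.

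Counts were tested across genes with edgeR 4.0.16 (TMM, filterByExpr, quasi-likelihood test) in R 4.3.3 and with DESeq2 1.42.0, with Benjamini-Hochberg adjustment over all genes tested. The fit of 4 libraries left out chromosomes 21, 22 and X (10943 genes). The edgeR fit named as KD replicate 1 alone kept these chromosomes (12135 genes). The edgeR fit named as without KD replicate 2 left them out (11270 genes). The scripts were tested on simulated counts with the same spread in every library and no trend on GC content. That setting differs from the KD libraries here, so the simulation does not show how the tests behave on them. CPM values use TMM-scaled library sizes, with factors of 1.036 and 1.035 in WT and 1.016 and 0.918 in KD. Offsets were lowess trends (span 0.3) of the log2 ratio on exon GC content and exon length. Subunit genes were named throughout, except that the result of 1 is not reported here. In the other lists, genes called by edgeR or DESeq2 were named, or else the 2 of smallest unadjusted p. The members and lists were chosen with earlier results of these data known. Total counts ranged from 2309549 to 9794674, and the limit given for a count of 0 covers counting error only, whereas SEs come from the fits and SDs from the 2 WT libraries and include the spread between libraries. The ChIP input and the promoter capture Hi-C samples are not used here.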

Additional observations from a re-analysis of the deposited data

How the results depend on the processing

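The counts of called subunit genes depended on the processing. With edgeR (0 lower, 0 higher), the counts became 1 lower and 2 higher with DESeq2, 4 and 4 without the filter on low counts (7.44% and 6.82% of all genes) and 4 and 4 with the replicate number as a block (10.3% and 9.77% of all genes). Leaving out 1 library gave 0 to 6 lower and 0 to 7 higher, with the highest counts without KD replicate 1 (21.4% and 20.4% of all genes). The DESeq2 counts of 1 lower and 2 higher became 0 and 0 when values of 0 on chromosomes 21, 22 and X were kept, 0 lower and 2 higher with GC and length offsets, and 0 to 6 lower and 0 to 6 higher when 1 library was left out, again highest without KD replicate 1 (19.4% and 16.8% of all genes); these DESeq2 alternatives were added after the data had been seen. With a replicate block DESeq2 had 1 lower and 2 higher. The numbers are shared in the labels, but nothing says that they mark a shared culture or day, and deviations from the group means correlated at 0.252 between same-numbered libraries, of which there are only 2 pairs. The median log2 fold change was 0.062 with GC and length offsets and ranged from 0.14 (without KD replicate 2) to 0.25 when 1 library was left out. The cause of these shifts was not tested.

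With GC and length offsets the log2 fold change took the other sign for POLR1B (0.10), POLR1G (-0.0042), POLR2B (0.0031), POLR2C (-0.14), POLR2J3 (-0.043), POLR2K (0.27) and POLR3GL (-0.017). When 1 library was left out, POLR1B ranged from -0.24 to 0.10, POLR1D from -0.056 to 0.16, POLR2C from -0.056 to 0.19 and POLR3GL from -0.11 to 0.23. The other 19 genes kept their sign under every edgeR alternative and in the DESeq2 fit of 4 libraries. Signs were not compared in the DESeq2 alternatives that were added later.

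The count of genes with a total mH2A1 peak at the TSS fell from 4 to 1 when a peak had to hold the whole window, and the other peak counts stayed within 1.5 times. A stricter peak score could not be run, as all scores are 0. Class medians of WT level rose when the longest transcript replaced the summed exons: to 17.1 RPKM for Pol I, 13.3 for the pair of Pol I and Pol III, 41.9 for the shared subunits, 19.5 for Pol II and 7.38 for Pol III. Without POLR2J3 and POLR2M, the Pol II median was 17.3 RPKM. With 2 libraries a group, of which the shallowest had 2309549 counts, genes at the level of POLR3E and POLR2F cannot be compared.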
